A study of Debaryomyces hansenii with 6 samples.

Results

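Of the 500 genes with the highest probe signal on an array of the salt-tolerant yeast Debaryomyces hansenii, 56 stayed within a log2 ratio of 0.3 of the control at each of 3 times in 2 M NaCl. These 56 steady abundant transcripts were chosen by their measured values. For each gene the log2 ratio of salt-stressed over control RNA was averaged over its 2 probes and then over the 2 arrays of a time, and all 3 means had to be smaller than 0.3 in size. Brightness was the mean log2 signal of both channels, averaged over probes and over 6 arrays, and the dimmest of the 500 had 9.16. The array measured 6320 genes, so the members were 56 of 6320. Because the ratios and signals themselves made the choice, the members' closeness to the control is a description and not a finding, and no test is attached to it.

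The cultures had grown in rich medium (YPD) at 30 °C to early log phase, and the labels name no strain. Stressed cells were taken 0.5 h, 3 h and 6 h after NaCl had been added to 2 M, and the control was an aliquot of unsalted cells collected at time 0. Each of the 6 Agilent 2-colour arrays held stressed RNA of 1 time against control RNA. Replicate 1 of each time had the stressed RNA in Cy5, while the dye-swapped array had the stressed RNA in Cy3. The study's design states that the swaps used different biological replicates. The titles mark these arrays as swaps and not as a second replicate, and they are called replicate 2 here. No unsalted culture of a later time was measured, so salt and time in culture cannot be told apart, and neither can biological replicate, dye orientation and slide row, which split the arrays in the same way.

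Debaryomyces hansenii is known from sea water and brined food, where it grows at salt concentrations that stop many other yeasts. Yeasts meet high salt by making glycerol as a compatible solute and by pumping out sodium, and in Saccharomyces cerevisiae the Hog1 kinase pathway governs much of the change in transcription. In S. cerevisiae the most abundant messages typically code for ribosomal proteins and glycolytic enzymes, and ribosomal protein messages fall for a time after stress. Abundant transcripts that keep a fixed level are of practical interest as internal references in RT-qPCR. The array files describe every gene as unknown and the reference table holds locus names only, so loci are given by name and no role is given to them. Of the 56 members, 50 had a locus name, and those without one stay unnamed but are in every count.

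All 56 members were well above background in both channels with both probes on all 6 arrays, and no spot of the array was saturated. The 3 h array of replicate 1 stood apart in its spike-in transcripts, whose 10 mean log2 ratios spanned 1.66 there and between 3.18 and 4.18 on the other 5 arrays. Without that array 55 genes met the rule, 41 of them among the 56. With both 3 h arrays left out, and the rule applied to 0.5 h and 6 h alone, 107 genes met it, 52 of them among the 56.

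The share of genes within the limit varied with signal, and how much it did so depended on the scaling. The 56 members made up 11.2% of the 500 brightest genes, while 50.6% of all 6320 genes stayed within 0.3 at all 3 times. The share was 22.2% in the next 500 genes by signal, 41.8% at ranks 2001 to 2500 and 98.75% among the dimmest 320. The offset of 50 added to every signal draws the ratios of dim genes towards 0 by construction, so the shares of dim genes are not comparable with those of bright ones. With the processed signals, which carry no such offset, 41 of the 500 brightest genes were inside, beside 771 of 6320, or 12.2% of all genes. Other settings moved the share of all genes up or down from 50.6%. Loess with no background correction and no offset had 60 of the 500 inside and 63.0% of all genes. In that setting the local background stays in both channels, which also draws the ratios of dim genes towards 0. The deposited table had 55 and 62.4%, and median centring had 32 and 26.6%. Within the 500, members were found at all levels of signal except near the top. The brightest 100 genes held 2 members, and the next 4 classes of 100 held 12, 16, 10 and 16. The mean log2 signal of the members ran from 9.16 to 11.22 with a median of 9.67, and that of the other 444 genes from 9.17 to 14.36 with a median of 9.84. Signals depend on the probe as well as on the transcript, so this order is one of probe signal and not of transcript number.

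**Figure D1:**
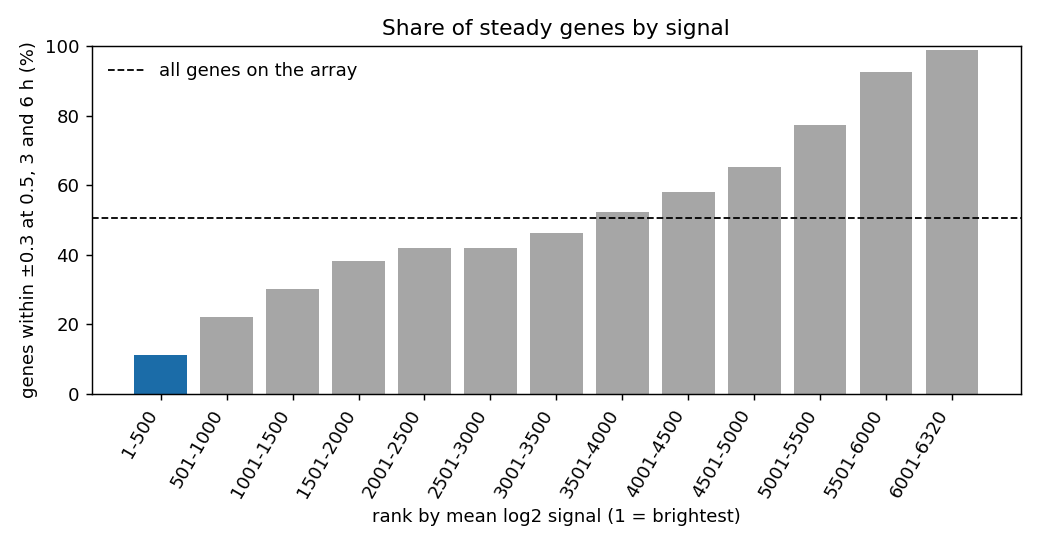
Share of genes within ±0.3 at 0.5, 3 and 6 h (vertical axis, %) in classes of genes ranked by mean log2 signal (horizontal axis, brightest at the left). The class of the 500 brightest genes, in blue, had the smallest share at 11.2%, against 50.6% for all genes (dashed line). These values hold for signals with an offset of 50 after loess. The share of all genes was 12.2% with the processed signals and 26.6% with median centring. It was 63.0% with no background correction before loess and 62.4% in the deposited table.

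On single arrays the members were spread more widely than their means. Their log2 ratios ran from -0.65 to 0.53 and from -0.58 to 0.57 on the 2 arrays of 0.5 h. At 3 h they ran from -0.91 to 0.45 and from -0.31 to 0.94, and at 6 h from -0.41 to 0.60 and from -0.65 to 0.37. The SD over the 56 members lay between 0.24 and 0.28 on every array, about the size of the limit itself. Only 10 of the 56 stayed within 0.3 on each of the 6 arrays, which 26.1% of all genes did. A further 20 members passed 0.3 on 1 array, 17 on 2 arrays, 5 on 3, 3 on 4 and 1 on 5 arrays. At 3 h the members past the limit lay on opposite sides, with 13 of 15 below on replicate 1 and 12 of 13 above on replicate 2. At 6 h 10 of 15 were above on replicate 1 and 12 of 14 below on replicate 2. A small mean of 2 arrays requires such values to cancel, so opposite signs on the arrays of a time follow in part from how the members were chosen. The 500 brightest genes as a whole leaned to the same sides. Their median log2 ratios on replicates 1 and 2 were -0.064 and 0.094 at 3 h, and 0.11 and -0.084 at 6 h.

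**Figure D2:**
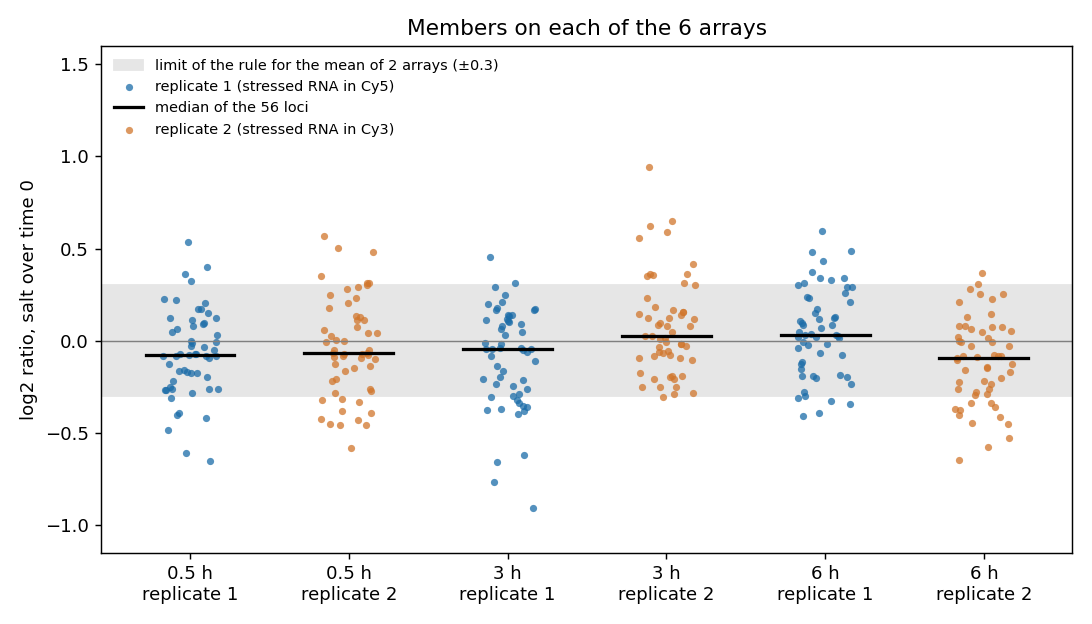
Log2 ratio of salt over time 0 (vertical axis) for the 56 members on each of the 6 arrays (horizontal axis), with replicate 1 in blue, replicate 2 in orange and the median as a black line. Each array holds members outside the grey band of ±0.3, and the lowest and highest single values, -0.91 and 0.94, are both at 3 h.

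The means had no common direction. At 0.5 h 24 members were above the control and 32 below, at 3 h 27 and 29, and at 6 h 26 and 30. The median member stood at -0.076 after 0.5 h, -0.0074 after 3 h and -0.030 after 6 h. Positive means at all 3 times were found for 9 members, or 16.1%, beside 25.1% of all genes and 36.5% of the other 444. Negative means at all 3 times were found for 11, or 19.6%, beside 25.4% and 29.7%. Since the means chose the members, nothing is read from the gaps between these shares. The mean rose at each step from 0.5 h to 6 h for 13 members and fell at each step for 11. The mean largest in size, whatever its sign, was that of 6 h in 26 members, of 0.5 h in 16 and of 3 h in 14.

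Among members with a locus name, DEHA2D16456g had the highest signal, with rank 58 of 6320. Its log2 ratios were -0.00039 and 0.31 on the arrays of 0.5 h, -0.77 and 0.94 at 3 h, and 0.03 and 0.37 at 6 h. The 3 h mean of 0.088 ± 1.21 (SD, n = 2) therefore came from arrays that lay far apart on opposite sides of 0. On the array of replicate 1 its normalised log2 signal was 10.34 in stressed RNA, against 11.11 in control RNA. On the array of replicate 2 it was 11.66 in stressed RNA, against 10.71 in control RNA.

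The second in signal, DEHA2D11396g at rank 80, kept its 3 means closest to 0 of all members, with its probes averaged and after loess. Its log2 ratios were 0.12 and -0.050 at 0.5 h, -0.050 and 0.12 at 3 h, and 0.025 and -0.0090 at 6 h. No other member kept all 6 arrays within 0.13. Its means were 0.036 ± 0.12, 0.034 ± 0.12 and 0.0080 ± 0.024 (SD, n = 2 each). Other settings gave other values for this locus. In the deposited table its means were -0.63 at 3 h and -0.50 at 6 h, outside the limit, and median centring gave 0.39, -0.48 and 0.50 at 0.5, 3 and 6 h.

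DEHA2D05412g, at rank 120, had log2 ratios of -0.25 and -0.26 at 0.5 h, -0.29 and -0.015 at 3 h, and 0.48 and -0.23 at 6 h. Its arrays lay together at 0.5 h and apart at 6 h. DEHA2F03410g, at rank 139, had -0.082 and 0.28 at 0.5 h, -0.046 and 0.085 at 3 h, and -0.28 and 0.14 at 6 h, so that every array stayed within the limit. DEHA2C05236g, at rank 165, had -0.61 and 0.35 at 0.5 h, where the arrays opposed each other, -0.17 and -0.25 at 3 h, and 0.24 and -0.20 at 6 h. The remaining 3 of the 8 brightest named members were DEHA2A08492g, DEHA2F13684g and DEHA2B06446g, at ranks 162, 166 and 173. Their largest single-array ratios in size were 0.39, 0.42 and 0.45.

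After DEHA2D11396g the smallest values among named members were those of DEHA2C13486g, DEHA2G14212g and DEHA2F03410g, each with a largest mean of 0.096 to 0.10 in size. For DEHA2C13486g this hid a spread at 6 h, with 0.29 on replicate 1 and -0.37 on replicate 2. DEHA2G14212g had -0.033 and 0.23 at 0.5 h, -0.063 and 0.16 at 3 h, and 0.12 and 0.021 at 6 h. Of the 56, 3 members had all means under 0.1 and 22 under 0.2.

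The limit cut through a continuous range of values. Just inside it lay DEHA2A08492g with a mean of -0.2997 at 0.5 h, DEHA2F14740g with -0.298 at 6 h, DEHA2G05544g with -0.297 at 6 h and DEHA2E11022g with 0.290 at 3 h. Just outside lay DEHA2E07436g with -0.307 at 3 h, DEHA2G18458g with -0.310 at 3 h, DEHA2B09372g with -0.311 at 6 h and DEHA2E17270g with -0.316 at 3 h. These differences from the limit are far smaller than the spread between 2 arrays.

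With 2 arrays per time, small means leave room for changes of moderate size. The 95% interval of a mean, from the limma fit over all 5966 genes that passed the filter, reached a median of 0.37 to either side for the members, with a range from 0.27 to 0.85. For the other 444 bright genes it reached a median of 0.48. All 3 intervals lay within a log2 ratio of 1, which is 2-fold, for 54 of the 56 members, 118 of the 444 and 4712 of the 5966. They lay within 0.5 for 11 members and 1401 of the 5966, and within 0.3 for 0 members and 5 of the 5966. The intervals are centred on the means that chose the members. The contrast with the 444 therefore follows in large part from that choice.

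In limma, 0 of the 56 members differed from the control at 0.5 h, 3 h or 6 h at an adjusted p under 0.05, and 0 had an unadjusted p under 0.05 at any time. Of all tested genes, limma called 0.0838% after 0.5 h, 5.95% after 3 h and 7.44% after 6 h. Since the means at these times chose the members, nothing is read from these counts. Without the 3 h array of replicate 1, DEHA2D16456g had a log2 ratio of 0.94 at 3 h, the value of the lone 3 h array that remained.

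Each member was read by 2 probes, and the rule limited their mean but not the agreement between them. Both probes stayed within 0.3 at all 3 times for 27 of the 56 members, beside 35.7% of all genes. A single probe did so for 24, and for the other 5 the mean of the probes was inside the limit while each probe alone was not. The probes had opposite signs at 1 or more times in 38 members and at all 3 times in 2. A limit on the mean of the probes favours opposite signs and small ratios of each probe by construction. No count of opposite signs over other genes is given. The largest difference between the probes' means over the 3 times had a median of 0.24 among members, 0.20 among the other 444 genes and 0.20 among all genes. Across members the ratios of the brighter and the dimmer probe correlated with r = 0.47 at 0.5 h, 0.073 at 3 h and 0.38 at 6 h (n = 56 genes), against 0.98, 0.96 and 0.98 across the other 444. The narrow range that the rule leaves to the members lowers such a correlation by construction, and both probes of a gene share the same 6 arrays.

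DEHA2D11396g, whose averaged ratios lay closest to 0, had probes with opposite signs. Its brighter probe had log2 ratios of 0.27 and -0.28 at 0.5 h, -0.13 and -0.82 at 3 h, and -0.28 and -0.68 at 6 h. Its dimmer probe had -0.021 and 0.18 at 0.5 h, 0.033 and 1.06 at 3 h, and 0.33 and 0.67 at 6 h. At 6 h both arrays of the brighter probe were below the control and both arrays of the dimmer probe above it, with means of -0.48 and 0.50. The near-zero mean of this locus thus rested on the averaging of probes that disagreed. Their mean log2 signals were 13.07 and 8.80, a gap of 4.27 that was the widest among the members, whose median gap was 0.52.

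DEHA2D10208g, with the next widest gap of 2.81, showed the same pattern. Its brighter probe had means of -0.43, -0.42 and -0.37 at 0.5, 3 and 6 h, and its dimmer probe had 0.43, 0.26 and 0.89. At 6 h the dimmer probe read 0.89 on each array, whereas the brighter probe read 0.30 on replicate 1 and -1.04 on replicate 2. These were the 2 members with a probe beyond 0.5 and also the 2 with opposite signs at all times. No probe of any member shared a run of 20 or more bases with a probe of another gene, in either orientation, while 22 of the other 444 genes did. In the members whose probes were closest in signal, DEHA2G06270g and DEHA2D05698g, with gaps of 0.055 and 0.062, the probes' means differed by 0.12 or less.

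**Figure D3:**
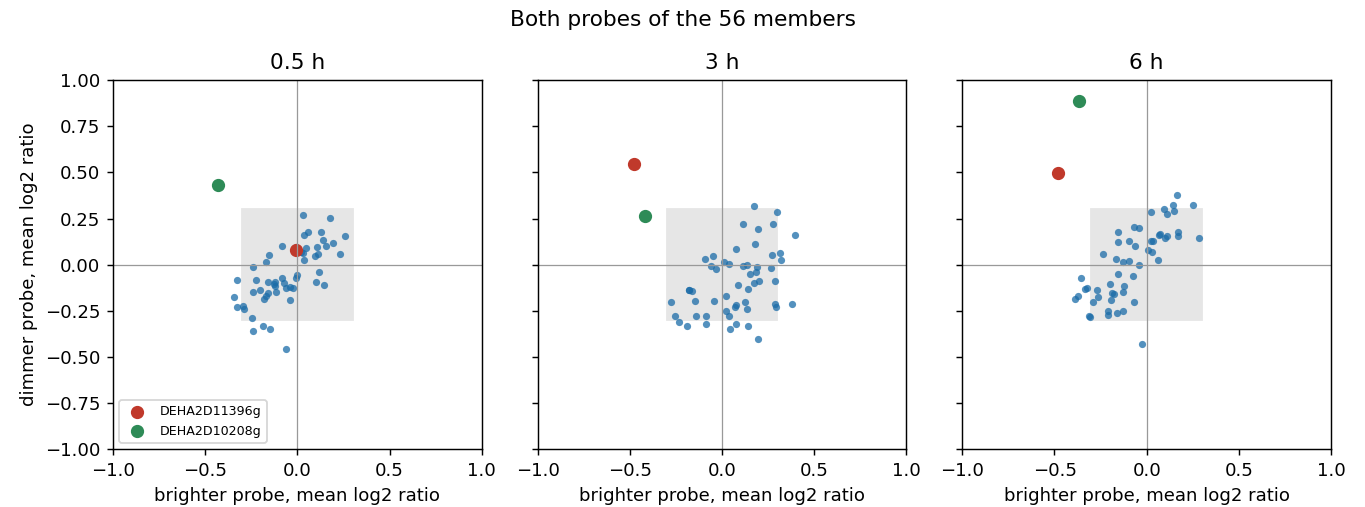
Mean log2 ratio of the dimmer probe (vertical axis) against that of the brighter probe (horizontal axis) of the 56 members at 0.5, 3 and 6 h, 1 point per locus, with the limit of ±0.3 as a grey square. DEHA2D11396g (red) lies outside the square at 3 h and 6 h and DEHA2D10208g (green) at all 3 times, in the quadrant where the brighter probe is below 0 and the dimmer above.

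The difference between the replicates was a contrast that the rule did not use, since the rule averaged both arrays of a time. In a limma fit with time as a factor, 0 of 5966 genes passed an adjusted p of 0.05 for replicate 1 minus replicate 2, a share of 0%, and 0 of the 56 members passed. At an unadjusted p under 0.05 there were 12 members, or 21.4%, beside 13.5% of all genes and 30.0% of the other bright genes. The difference ran from -0.94 to 0.61 over the members, and its size had a median of 0.23 among members, 0.31 among the other 444 and 0.16 among all tested genes. No test compared these groups of genes. The fit takes the arrays of a replicate as independent, and the labels do not state whether they share a culture. Its p-values and standard errors therefore measure the spread between these arrays only.

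The lowest difference belonged to DEHA2B14454g, at -0.94 ± 0.21 (SE, 6 arrays) with an adjusted p of 0.188 in limma. Its log2 ratios were -0.27, -0.91 and -0.41 at 0.5, 3 and 6 h on replicate 1, and 0.57, 0.59 and 0.072 on replicate 2. All 3 arrays of replicate 1 lay below the control and all 3 of replicate 2 above it. DEHA2F09724g, with the third lowest difference, had the same separation, with -0.42, -0.62 and -0.12 on replicate 1, and 0.50, 0.098 and 0.28 on replicate 2. Its difference was -0.68 ± 0.15 (SE, 6 arrays) with an adjusted p of 0.187 in limma. With a trended and robust moderation both of these passed, at adjusted p-values of 0.0388 and 0.0405 in limma, among 28 genes called. The second lowest difference was that of DEHA2D16456g, at -0.79 ± 0.29 (SE, 6 arrays), and DEHA2A09328g had the fourth lowest, at -0.66 ± 0.17 (SE, 6 arrays).

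The highest differences were those of DEHA2A06710g, DEHA2C03344g, DEHA2B03718g and DEHA2F21120g, at 0.61, 0.56, 0.46 and 0.40. Their adjusted p-values ran from 0.207 to 0.276 in limma. DEHA2A06710g had 0.53, 0.17 and 0.15 at 0.5, 3 and 6 h on replicate 1, all above the control, and -0.13, -0.19 and -0.65 on replicate 2, all below it. DEHA2C03344g likewise had 0.17, 0.31 and 0.34 on replicate 1, and -0.58, -0.25 and -0.029 on replicate 2. In 14 members, or 25%, replicate 1 was above replicate 2 at all 3 times. This held for 18.02% of all genes and 17.79% of the other 444. Replicate 1 was below replicate 2 at all 3 times in 15 members, or 26.79%, beside 20% and 22.97%. No test compared these shares.

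**Figure D4:**
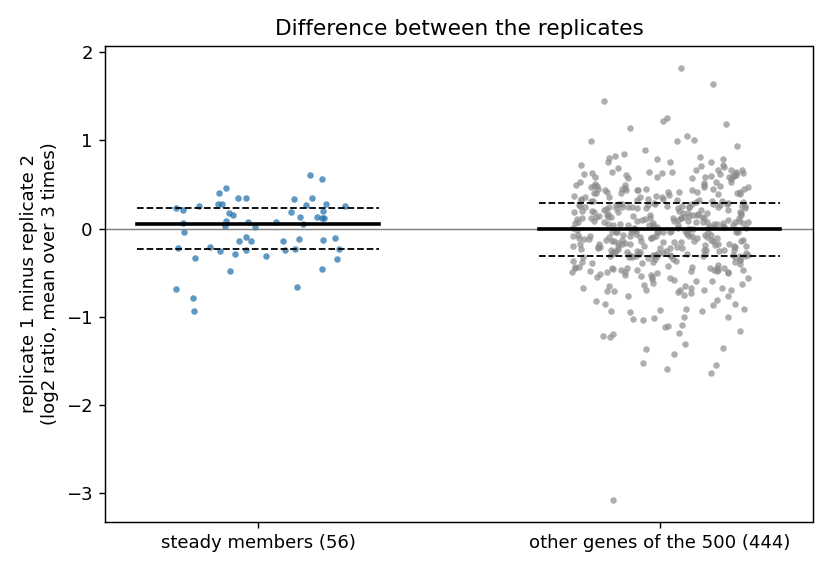
Replicate 1 minus replicate 2 of the log2 ratio, averaged over the 3 times (vertical axis), for the 56 members at the left and the other 444 of the 500 brightest genes at the right, 1 point per gene, with the median as a solid and the quartiles as dashed lines. The members run from -0.94 to 0.61 and the other genes from -3.08 to 1.82.

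Which abundant genes were steady depended on the scaling of the arrays. Loess, a curve fitted to the ratios along the signal, sets each ratio relative to genes of like brightness, so a shift that bright genes have in common is removed. When each array was instead centred on the median ratio of all genes, the median member had a log2 ratio of 0.28 after 0.5 h, -0.27 after 3 h and 0.33 after 6 h. The median of all genes stayed between -0.026 and 0.017 in that setting. All 56 members then lay above the median of all genes at 0.5 h and 6 h, and 2 did at 3 h. The other 444 bright genes shifted with them, with medians of 0.40, -0.25 and 0.40. Only 10 of the 56 members were still within 0.3 at all 3 times, beside 26.6% of all genes.

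The shift was not the same on the 2 arrays of a time. After median centring the members' median was -0.066 on replicate 1 and 0.61 on replicate 2 at 0.5 h. It was -0.13 and -0.45 at 3 h, and 0.38 and 0.30 at 6 h. Within 3 h and within 6 h both arrays shifted to the same side, while at 0.5 h the shift was large on replicate 2 alone. The cause of these shifts was not tested. Under the other settings most members stayed inside at all 3 times. This held for all 56 with no background correction before loess, for 50 in the deposited table and for 41 in the processed signals of the scanner files.

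**Figure D5:**
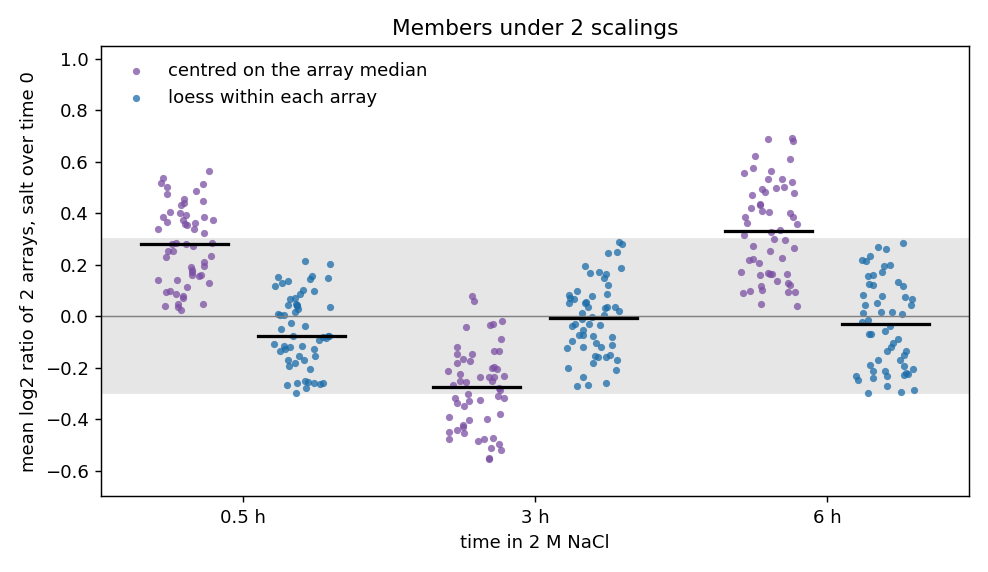
Mean log2 ratio of salt over time 0 (vertical axis) of the 56 members at 0.5, 3 and 6 h in 2 M NaCl, after centring each array on its median (purple) and after loess (blue), with medians as black lines and the limit of ±0.3 as a grey band. After centring the medians were 0.28, -0.27 and 0.33, and after loess -0.076, -0.0074 and -0.030.

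The 10 members inside the limit on each array were DEHA2D11396g, DEHA2F03410g, DEHA2G18634g, DEHA2F01100g, DEHA2F14322g, DEHA2G18436g, DEHA2C08712g, DEHA2C03432g, DEHA2G14212g and DEHA2C06974g, named here after their values were seen. Both probes were also within 0.3 at all 3 times in 5 of them, DEHA2F03410g, DEHA2G18436g, DEHA2C08712g, DEHA2G14212g and DEHA2C06974g. These 5 stayed inside under all 4 settings other than median centring, which 38 of the 56 members did. The 4 settings include the one that chose the members, and all of them use the same 6 arrays. DEHA2C08712g was the only 1 of the 5 inside after median centring as well. Its log2 ratios were -0.27 and -0.072 at 0.5 h, 0.079 and -0.083 at 3 h, and 0.022 and -0.26 at 6 h. At 0.5 h both its arrays lay below the control.

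DEHA2G18436g had 0.030 and 0.058 at 0.5 h, 0.12 and 0.013 at 3 h, and 0.030 and 0.21 at 6 h. It was the only member above the control on all 6 arrays. The only member below the control on all 6 was DEHA2C03432g, with -0.18 and -0.16 at 0.5 h, -0.015 and -0.19 at 3 h, and -0.20 and -0.22 at 6 h. Its probes disagreed at 3 h, where the means were 0.19 for the brighter and -0.40 for the dimmer. DEHA2C06974g had -0.20 and -0.053 at 0.5 h, 0.18 and -0.10 at 3 h, and 0.085 and 0.064 at 6 h, on both sides of the control.

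By their locus names the members lay on all 7 chromosomes, with 13 of 50 on chromosome F and 3 of 50 on chromosome E, where 18.7% and 16.4% of all named genes lie. There were 0 pairs of members next to each other in the gene order of the reference table, and 5 members lay next to another of the 500 brightest genes. Of the 5348 genes with a locus name, 450 were among the 500 brightest. No share of neighbours over all genes is given, so nothing is read from these counts. The GC content of their 60-base probes had a median of 39.2%, beside 40.0% for the other 444 genes and 38.3% for all genes. No probe sequence is shown.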

How the data were processed

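RNA of salt-stressed and time-0 cells was compared on 6 2-colour arrays. Per the file headers, Feature Extraction 9.1.3.1 read the spots. The deposited intensities are pixel medians of spots and local background, and processed signals. The files' log10 ratios of processed red over green, per the file headers, were not used. The deposited table of log2 ratios was used as an alternative, and limma is named in the submitters' processing notes. Its direction, stressed over control, was found from correlations of 0.988 to 0.996 with median signals after loess alone. Correlations cannot give the unit, which was taken as log2. The members' means at 0.5 h were of similar size in both, from -0.30 to 0.26 in the deposited table and from -0.28 to 0.21 after loess alone. The column medians of the deposited table were -0.00121 and 0.00289 at 0.5 h, 0.00381 and -0.0109 at 3 h, and 0.0106 and 0.00272 at 6 h for replicates 1 and 2. How it was normalized remains unknown.

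Median signals were corrected with normexp (offset 50) and normalized by loess with limma 3.58.1 under R 4.3.3. Control spots had weight 0, and spots marked as outliers were left out. Ratios were turned to stressed over control and averaged over a gene's 2 probes. Testing covered the 5966 of 6320 genes with a probe that exceeded background clearly in 2 or more of its 12 channel values. The tests used lmFit and eBayes with Benjamini-Hochberg adjustment. Shared cultures across times are not stated in the labels, so p-values measure the spread between these arrays. Deviations of same-numbered arrays, which also share dye orientation, correlated at 0.21, 0.32 and 0.35.

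The members and lists were chosen with earlier results of these data known. The functional lists could not be applied, as no source used here describes the genes, and protein and promoter sequences were not used here. Named loci are the 8 brightest members, the 4 steadiest, the 4 on each side of the limit, the 4 highest and 4 lowest replicate differences, and the 2 with the widest and 2 with the closest probe signals, among genes with a locus name. Unversioned accessions were matched to locus names of assembly ASM644v2 for 5348 of 6320 genes. Coordinates are left out because the arrays' own build is not stated. The fits and the rule were tested on simulated data.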

Additional observations from a re-analysis of the deposited data

How the results depend on the processing

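The number of genes meeting the rule was 56. It was 32 with median centring, of which 10 were among the 56. It was 23 and 167 with the 250 and 1000 brightest genes, 22 and 150 with limits of 0.2 and 0.5, and 107 without both 3 h arrays, as these settings change the rule itself. Leaving out 1 array gave 45 to 55, with 38 to 45 of the 56 still inside, and 2457 to 3522 of all genes inside, against 3200. Of the 56, 10 were inside with median centring and 37 with the dimmer probe. Of all genes, 771 were inside with processed signals and 1678 with median centring.

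The members inside on each array numbered 10, against 17 with no background correction, 2 with median centring, 6 with the dimmer probe and 12 to 16 with 1 array left out, the 16 without the 6 h array of replicate 1, where fewer arrays had to pass. With a replicate block 0 members were called at 0.5, 3 or 6 h, as without it. With 1 array left out, the calls at its time rest on the lone array that remains, and no count of them is given. For replicate 1 minus replicate 2 the count of genes was 0, against 28 with trended and robust moderation (2 of them members), 1 with median centring, 5 without both 3 h arrays and 0 to 5 with 1 array left out, the 5 without either 3 h array. Members at an unadjusted p under 0.05 numbered 12, against 6 with processed signals, 5 with median centring, 19 with the deposited values and 8 to 16 with 1 array left out. Where no construction is named, the cause was not tested.

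The setting without saturated spots changed nothing, as there were 0 such spots among the genes' probes. Leaving out both 3 h arrays and a loess span of 0.7, which gave 53 genes, were added after the data were seen. Precision is limited by the 2 arrays of each time, and dye orientation and biological replicate are 1 split.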
